A study of Mus musculus with 4 samples.

Results

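Mature dendritic cells of mouse liver were studied, the dendritic cells that hold RNA of Ccr7, the receptor that guides cells along lymph vessels, together with Fscn1 or Ccl22. Members were chosen cell by cell from the raw counts of unique molecular identifiers (UMIs). After a filter that asked for 200 or more detected genes per cell and no more than 10% of UMIs from mitochondrial genes, 6237 cells remained. Of these, 86 met the rule, which asked for at least 1 UMI of Ccr7, at least 1 of Fscn1 or Ccl22, at least 1 of H2-Ab1, fewer than 5 UMIs of C1qa, C1qb and C1qc per 1000, and none of Cd3e, Cd79a or Siglech. The last 4 criteria keep out macrophages, T cells, B cells and plasmacytoid dendritic cells. All 4 libraries came from C57BL/6J mice. The animals behind 2 libraries were fed a control diet, and those behind the other 2 the Amylin liver NASH model diet, a dietary model of nonalcoholic steatohepatitis (NASH), in which the liver is fatty and inflamed. Liver non-parenchymal cells had been sorted for CD45, a leukocyte marker, and against CD146, an endothelial marker, after a digestion with flavopiridol, an inhibitor of transcription. The labels used here give neither the age of the mice nor whether different libraries stem from different animals. For shares of cells, the p-values reflect the spread between libraries alone. For genes, they reflect how differences between cell classes varied between the 2 NASH libraries. Either spread may be technical.

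Dendritic cells take up antigen in tissues and present it to T cells. Type 1 conventional dendritic cells (cDC1) carry Xcr1 and Clec9a and specialise in presenting antigen on MHC class I, and type 2 cells (cDC2) carry Cd209a and Sirpa among others and present chiefly on MHC class II. Either kind can mature, when it stops taking up antigen, moves peptide-loaded MHC to its surface, gains costimulatory molecules such as CD40, switches on the NF-kB pathway, and uses CCR7 to follow the chemokines CCL19 and CCL21 to draining lymph nodes. Fscn1 encodes fascin, which bundles actin in the long processes of mature cells, and Ccl22 encodes a chemokine that attracts T cells carrying CCR4.

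The 4 libraries held 27998 genes and between 1550 and 1933 barcodes each. Total UMIs came to 5513953 and 5684819 in the control libraries against 13749657 and 15619962 in the NASH libraries, and the median kept cell held 3395 and 3053 UMIs against 7633 and 7469. Depth therefore differed with diet. Between 2 and 8 barcodes were shared by any pair of libraries. A barcode of 1 NASH member also occurred in control library 2, where it failed the filters. Members of the NASH libraries held a median of 8358 UMIs, from 2590 to 30642, and none of them was among the cells with the highest Scrublet doublet scores.

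The NASH libraries held 85 of the 86 members, 46 in library 1 and 39 in library 2, and control libraries 1 and 2 held 0 and 1. The share of kept cells was 0% (exact 95% interval up to 0.279%) and 0.0696% (0.00176% to 0.387%) in the control libraries, and 2.89% (2.12% to 3.84%) and 2.07% (1.47% to 2.81%) in the NASH libraries. Both NASH shares lay above both control shares, and the intervals did not overlap. The means were 0.0348% ± 0.0492 and 2.48% ± 0.582 (SD, n = 2 libraries each), a difference of 2.44 percentage points. With 2 libraries against 2, the two-sided exact permutation test gave p = 0.333, the smallest it can give. Intervals cover counting error only. With all deposited barcodes kept, members were 0 of 1550 and 2 of 1805 (0.111%) in the control libraries. They were 46 of 1639 (2.81%) and 41 of 1933 (2.12%) in the NASH libraries.

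Set against conventional dendritic cells alone, counted as members plus cDC1 and cDC2, members were 0 of 9 cells in control library 1, which allows up to 33.6%, and 1 of 19 (5.26%, exact interval 0.133% to 26.0%) in control library 2. They were 46 of 128 (35.9%, 27.7% to 44.9%) and 39 of 111 (35.1%, 26.3% to 44.8%) in the NASH libraries. The NASH libraries thus gave nearly equal shares, and the control intervals reached into theirs in library 1. The means differed by 32.9 percentage points, with the same exact p of 0.333. Because the rule needs a UMI of up to 3 genes and control cells were shallower, every cell was also thinned to 2000 UMIs, which left out 234, 393, 0 and 2 shallower cells. At that depth 0 of 1087 and 2 of 1044 control cells met the rule, against 28 of 1592 (1.76%) and 31 of 1885 (1.64%) NASH cells, a difference of 1.61 points in the same direction.

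**Figure D1:**
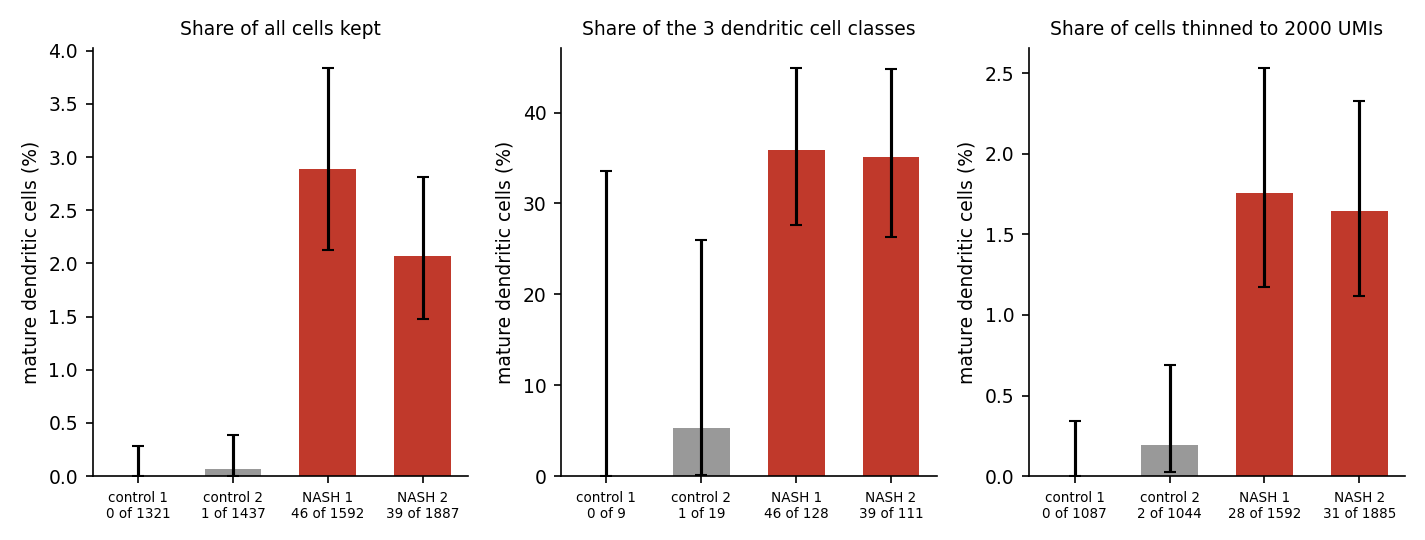
Mature dendritic cells as a percentage of kept cells, of conventional dendritic cells and of cells thinned to 2000 UMIs, for each of the 4 libraries. Bars are shares, whiskers exact 95% intervals, and the counts stand under the bars. The NASH libraries reached 2.89% and 2.07% of kept cells, and the control libraries 0% and 0.0696%.

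The rule's own genes are given as a description and with no test. Among the 85 NASH members Ccr7 ran from 1 to 36 UMIs with a median of 7, Fscn1 from 0 to 51 with a median of 11, Ccl22 from 0 to 86 with a median of 4, and H2-Ab1 from 1 to 220 with a median of 21. Both Fscn1 and Ccl22 were found in 63 members, Fscn1 alone in 17 and Ccl22 alone in 5. Only 8 members rested on a single Ccr7 UMI. In CPM, the UMIs of a sum scaled to a common total with TMM factors and used below throughout, Ccr7 (chromosome 11, 99144196 to 99155077, minus strand, mm10) stood at 1147 and 1642 in the members of NASH 1 and NASH 2, at 1.45 and 1.65 in cDC1 and at 0 in both cDC2 sums. Fscn1 (chromosome 5, 142960343 to 142973185, plus strand) stood at 1593 and 1990, against 1.45 and 0 in cDC1 and 10.5 and 0 in cDC2. A Ccr7 UMI was found in 2 of 111 cDC1 and in 0 of 43 cDC2. In C1q-high macrophages of the same libraries it was found in 45 of 2247 (2.00%), at a median of 8457 UMIs. Whether free RNA in droplets gave that last share was not tested.

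Just inside the limits lay 8 members with 1 Ccr7 UMI and a member with 4.41 C1q UMIs per 1000, the next highest being 1.06. Just outside lay 10 cells that failed only by C1q, at 5.19 to 21.2 per 1000, and 14 that held 1 to 3 Ccr7 UMIs but neither Fscn1 nor Ccl22. Another 52 cells lacked only Ccr7, and 33 of them held Ccl22 and 21 held Fscn1. Of these cells 40 lay in NASH 1. Among them 11 counted as cDC1 and 5 as cDC2, so these served as comparison cells below.

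The label was checked against a part of the mature cell markers that the rule did not use. Relb was found in 84 of the 85 NASH members, Il4i1 in 72, Cacnb3 in 69 and Socs2 in 64. Fewer members held Cd274 (22) and Ccl17 (12), and Apol7c was found in 9 of 46 members of NASH 1 and 12 of 39 of NASH 2. Of these markers, Cacnb3 was found in 0 of 111 cDC1 and 0 of 43 cDC2, and in 1.25% of C1q-high macrophages. Relb was also found in some cDC1 and cDC2, at the lower levels given below. Flt3, the cytokine receptor of the dendritic lineage, was found in 58 members (68.2%), in 77.5% of cDC1, in 67.4% of cDC2 and in 3.03% of C1q-high macrophages. Relb, Il4i1, Cacnb3 and Socs2 thus went with the label in most members, while Cd274, Ccl17 and Apol7c did so in a minority. The single control member, with 4823 UMIs, held 2 of Ccr7, 12 of Fscn1, 6 of Ccl22, 222 of Ccl5, 5 of Relb and 3 of Cacnb3, and 0 of Il4i1, Il12b, Cd83 and Flt3. A single cell allows no comparison between diets, so the rest describes NASH members.

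UMIs of the members were summed per library and compared with the sums of cDC1 (60 and 51 cells of NASH 1 and 2) and cDC2 (22 and 21 cells) in 1 edgeR quasi-likelihood fit across all genes with the library as block, and the main contrast set members against the equal-weight mean of cDC1 and cDC2. Of 4389 genes tested, 1501 (34.2%) passed a Benjamini-Hochberg adjusted p of 0.05, 871 (19.8%) higher and 630 (14.4%) lower in members. The list counts below are to be set against these 2 shares. The median of all genes was a log2 difference of -0.03, and upper-quartile scaling shifted it to -0.20 and gave 726 higher and 875 lower, so the balance between the directions rests on the scaling. Against cDC1 alone 805 genes (18.3%) were higher and 636 (14.5%) lower, and against cDC2 alone 730 (16.6%) and 552 (12.6%), which makes 32.8% and 29.2% of genes called in either direction. These contrasts share the member sums. Between the member sums of the 2 libraries there was a median absolute log2 ratio of 0.23 over the 1225 genes at 100 CPM or more. A set of 5 members of NASH 1 that also hold genes of neutrophils, monocytes or macrophages are described with the marker lists below, and without them 954 genes were higher and 830 lower. Without a whole NASH library a test needs the control cDC1 and cDC2 sums for its spread, which assumes that the lone member sum varies like the other classes, and the calls then dropped to 274 without NASH 1 and 209 without NASH 2. Of the named genes 29 and 30 then lost the call, among them Cd48, Cx3cr1, Ifi30, H2-Oa, Npc2 and Gapdh in both cases, Clec10a without NASH 1, and H2-DMa, Ldha and Ube2c without NASH 2.

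Maturation genes were higher nearly throughout. Of 25 tested members of that list 24 were higher in mature cells and 0 lower, against 19.8% higher among all genes, with a median log2 difference of 5.73, or 5.55 with genes at 0 in the comparison set at their bound. The list was chosen with earlier results of these data known, as were the others, so its direction is no independent evidence. Tnfrsf4, which encodes the costimulatory receptor OX40, stood at 412 and 498 CPM in members of NASH 1 and 2 and was not found in cDC1 or cDC2, so it was at least 255-fold higher. Cacnb3, a calcium channel subunit, stood at 355 and 386 CPM and was also not found there, at least 209-fold higher. Nudt17, a hydrolase gene, stood at 330 and 355 CPM with 0 UMIs in the comparison, at least 193-fold higher. Genes at 0 in the comparison passed the filter on low counts through the member sums alone. They could only be called higher, and list counts that include such genes share this limit. Bounds use a floor of 3 UMIs over the comparison cells. Socs2, an inhibitor of cytokine signalling, stood at 309 and 510 CPM, with a ratio to the pooled comparison cells of 677 (95% counting interval 120 to 26849), since only 1 comparison UMI was found.

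Il12b (chromosome 11, 44400063 to 44414033, plus strand) encodes the p40 chain shared by the T cell cytokines IL-12 and IL-23. It stood at 408 and 966 CPM in members, and the 381 member UMIs faced 3 in cDC1 and cDC2 together, a ratio of 372 (counting interval 126 to 1812). Serpinb6b, a protease inhibitor, stood at 1116 and 1001 CPM against 37.8 and 39.7 in cDC1 and 0 and 4.67 in cDC2, and its log2 difference was 6.66 (SE 0.27, edgeR adjusted p = 2.1e-10). Tmem123, a membrane protein gene, stood at 1843 and 2380 CPM against 41.3 to 99.5 in the 4 comparison sums, a log2 difference of 5.03 (SE 0.16, edgeR adjusted p = 4e-11). Member sums of both genes lay far above every comparison sum. Beyond the lists, the largest positive differences also took in Ramp3, a receptor accessory protein, at 262 and 158 CPM with 0 UMIs in the comparison (at least 122-fold), and Asprv1, a protease gene, at 77.9 and 124 CPM (at least 55.7-fold). With DESeq2 the genes at 0 in the comparison cells lost the call, with adjusted p from 0.081 for Tnfrsf4 to 0.21 for Asprv1.

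**Figure D2:**
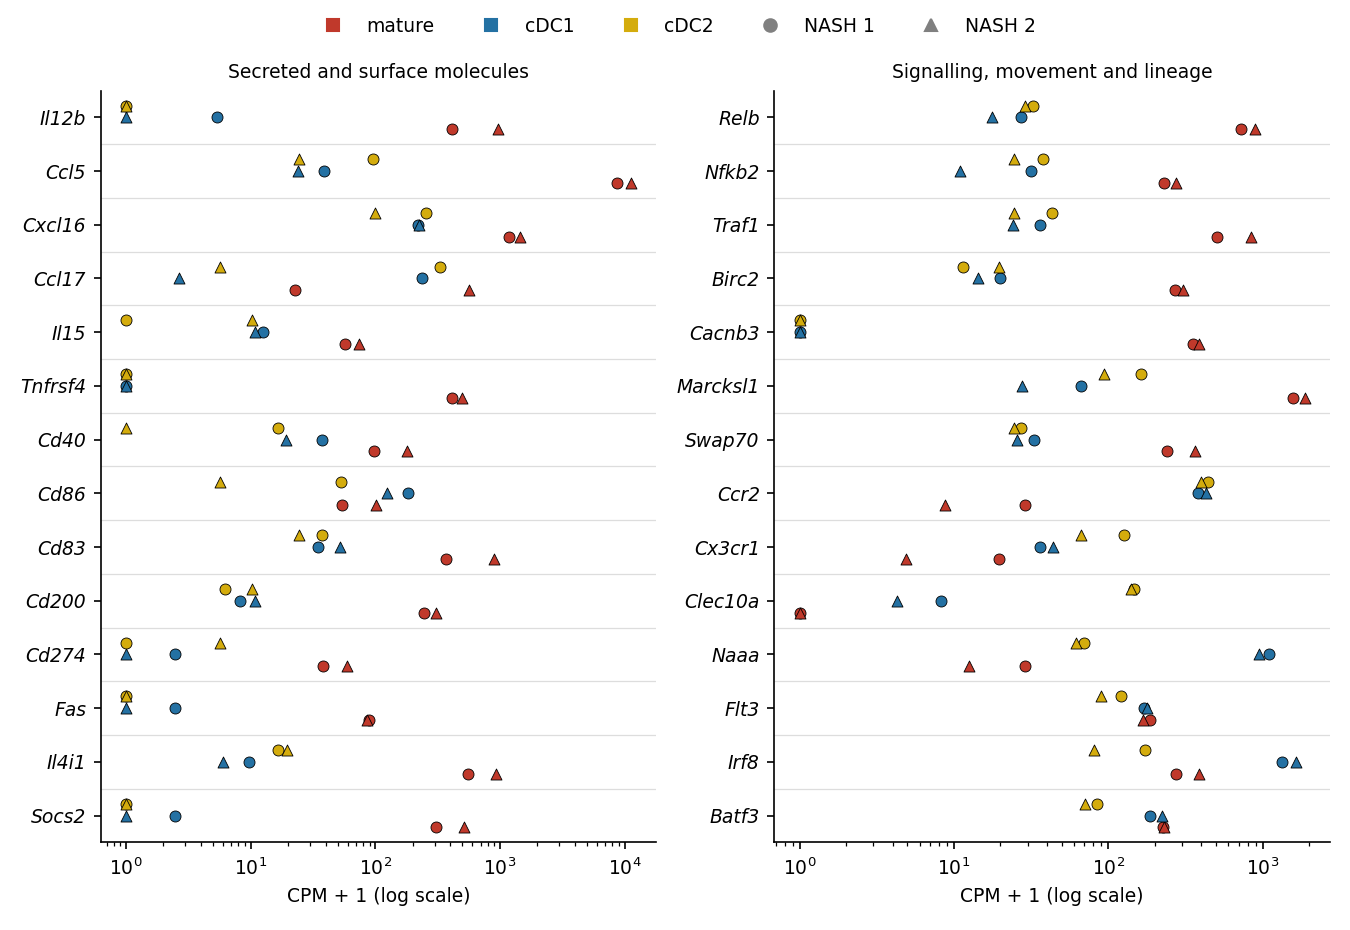
CPM + 1 on a log axis for named genes in the 6 sums of the NASH libraries. Colour marks the class (mature red, cDC1 blue, cDC2 yellow), circles NASH 1 and triangles NASH 2. Ccl5 stood at 8759 and 11221 CPM in members and below 100 CPM in cDC1 and cDC2, and Ccr2 showed the opposite order.

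The NF-kB list comprises the transcription factors, their inhibitors and the signalling proteins that release them. Of 16 tested genes 14 were higher, 1 lower and 1 did not pass, with a median log2 difference of 2.49. Among them were genes of the alternative pathway, which runs from receptors such as CD40 through the kinase NIK to the RelB-p52 pair. Cd40 stood at 96.7 and 178 CPM in members against 0 to 36.4 in the comparison sums, a log2 difference of 3.19 (SE 0.51, edgeR adjusted p = 0.00062). Map3k14, which encodes NIK, was higher by 3.29 on the log2 scale (SE 0.34). Relb (chromosome 7, 19606217 to 19629438, minus strand) stood at 727 and 893 CPM against 26.2 and 16.5 in cDC1 and 31.4 and 28.0 in cDC2, a log2 difference of 4.98 (SE 0.23, edgeR adjusted p = 1.1e-09). Nfkb2, the precursor of p52, stood at 228 and 274 CPM against 9.91 to 36.7, a log2 difference of 3.33 (SE 0.31). Both member sums lay above all 4 comparison sums for each of these genes. Nfkb1, the precursor of p50 in the classical pathway, was lower, at 118 and 120 CPM against 141 and 117 in cDC1 and 283 and 275 in cDC2, a log2 difference of -0.67 (SE 0.22, edgeR adjusted p = 0.031), and its member sums overlapped those of cDC1. It lost the call with DESeq2 (adjusted p = 0.23), which called 11 genes of the list higher and 0 lower, and under other alternatives. On the log2 scale Traf1 was higher by 4.41 and Birc2 by 4.18, and the inhibitor genes Nfkbie by 2.01 and Nfkbia by 2.11.

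Promoters of 4 genes that were higher in members, 2 of the NF-kB list and 2 of the MHC class I list below, are shown because they hold a match to the NF-kB consensus within 250 bases before the RefSeq start site (GRCm38.p6, 5′ to 3′ on the gene's strand). Capitals mark matches, searched on both strands, with overlapping matches merged.
Nfkb2, chr19:46304487-46304736, plus strand: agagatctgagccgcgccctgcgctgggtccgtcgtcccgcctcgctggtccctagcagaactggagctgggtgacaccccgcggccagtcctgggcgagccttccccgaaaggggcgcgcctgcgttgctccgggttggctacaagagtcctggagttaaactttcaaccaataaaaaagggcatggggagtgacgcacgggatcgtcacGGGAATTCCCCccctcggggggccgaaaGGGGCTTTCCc
Nfkbie, chr17:45555450-45555699, plus strand: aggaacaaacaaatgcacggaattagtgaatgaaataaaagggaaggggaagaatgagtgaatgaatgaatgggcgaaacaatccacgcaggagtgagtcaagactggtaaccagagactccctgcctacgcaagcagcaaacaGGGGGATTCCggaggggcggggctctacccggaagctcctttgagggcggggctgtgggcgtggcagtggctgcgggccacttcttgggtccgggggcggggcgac
B2m, chr2:122147437-122147686, plus strand: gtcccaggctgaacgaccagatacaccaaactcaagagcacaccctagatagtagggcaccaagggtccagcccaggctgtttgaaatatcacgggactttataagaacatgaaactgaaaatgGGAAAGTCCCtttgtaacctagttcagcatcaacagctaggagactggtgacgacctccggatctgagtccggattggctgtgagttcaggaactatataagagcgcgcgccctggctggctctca
H2-K1, chr17:34000334-34000583, minus strand: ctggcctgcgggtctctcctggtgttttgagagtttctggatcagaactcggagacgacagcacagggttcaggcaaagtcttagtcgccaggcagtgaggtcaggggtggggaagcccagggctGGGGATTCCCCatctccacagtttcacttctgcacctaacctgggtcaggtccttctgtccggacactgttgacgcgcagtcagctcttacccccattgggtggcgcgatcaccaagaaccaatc
A match was found in 8 of the 17 NF-kB list genes with a promoter in the RefSeq table, in 7 of 18 MHC class I genes, in 4 of 11 chemokine ligand genes, in 1 of 19 maturation genes and in 1 of 14 migration genes. Over all genes 2225 of 27025 (8.23%) held one, and it was 368 of 3394 (10.8%) of tested genes, 93 of 673 (13.8%) of genes higher in members and 51 of 477 (10.7%) of genes lower. A match describes letters in the window and says nothing of binding in these cells.

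Migration and cytoskeleton genes were higher in members without exception among those tested. All 11 tested genes of that list were higher and 0 lower, with a median log2 difference of 3.18, and 7 others were used by the rule or too low to test. Marcksl1, which links the membrane to actin, stood at 1578 and 1866 CPM against 65.4 and 26.4 in cDC1 and 162 and 93.3 in cDC2, a log2 difference of 4.52 (SE 0.24, edgeR adjusted p = 1.8e-07). Myo1g, a myosin of the leukocyte membrane, stood at 502 and 537 CPM against 41.9 to 65.3 in the comparison, a log2 difference of 3.18 (SE 0.21). Swap70, an actin regulator, was higher by 3.47 and Net1, an activator of RhoA, by 3.86. Each of these 4 genes had both member sums above all comparison sums, a position held by 25.9% of all tested genes.

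Chemokine ligands did not move as a group. Of 7 tested, Ccl5 and Cxcl16 were higher, 0 were lower and 5 did not pass. Ccl5 (chromosome 11, 83525778 to 83530518, minus strand), a chemokine that attracts T cells and other leukocytes, stood at 8759 and 11221 CPM in members, at 37.8 and 23.1 in cDC1 and at 94.3 and 23.3 in cDC2. Its log2 difference was 7.89 (SE 0.39, edgeR adjusted p = 0.0011), and a UMI was found in 75 of 85 members. It was also found in 19 of 111 cDC1 and in 27% of C1q-high macrophages. Any part of free RNA in these shares was not tested. Cxcl16, a ligand made in membrane-bound and shed forms, stood at 1185 and 1449 CPM against 98.0 to 257, a log2 difference of 2.75. Ccl17, the other ligand of CCR4, went opposite ways in the 2 libraries, at 21.8 and 560 CPM in members of NASH 1 and 2, at 234 and 1.65 in cDC1 and at 330 and 4.67 in cDC2, and it did not pass (edgeR adjusted p = 0.73). It was found in 12 members, all of which also held Ccl22, and a single member held 59 of its 145 UMIs in NASH 2. The comparison levels of NASH 1 likewise rested on few cells. There 2 cDC1 held 101 and 59 Ccl17 UMIs and 2 cDC2 held 38 and 23, so the opposite directions rest on single cells. Ccl19 was not analysed here.

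The few chemokine receptors that could be tested were lower. Of 13 on the list, 7 were too low to test and 2 were used by the rule or gates. All 4 tested were lower, against 14.4% lower among all genes. Their median log2 difference was -3.38, or -2.68 with genes at 0 in members set at their bound. Ccr2 (chromosome 9, 124101950 to 124113557, plus strand), which brings monocytes and dendritic cell precursors into tissue, stood at 28.1 and 7.73 CPM in members against 382 and 428 in cDC1 and 440 and 397 in cDC2, a log2 difference of -4.43 (SE 0.34, edgeR adjusted p = 1.6e-07). Cx3cr1, the fractalkine receptor, stood at 18.7 and 3.86 CPM against 34.9 to 126 and was lower by a log2 difference of -2.33. It lost the call where part of each cell's UMIs set the classes and the rest were measured (edgeR adjusted p = 0.056). Cxcr3 had 0 UMIs in members and 72 in the comparison cells. It passed the filter on low counts through the comparison alone and could only be called lower. It lost the call with the stricter cell filter (edgeR adjusted p = 0.062) and with DESeq2 (adjusted p = 0.052), which called 2 of the 4. For Ccr2, both member sums lay below all others.

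Cytokine and cytokine receptor genes were mixed, with 7 higher, 1 lower and 7 not passing of 15 tested. Beside Il12b, 5 of the higher genes encode receptor chains. Il21r stood at 81.1 and 120 CPM against 2.91 to 9.33 (log2 difference 4.29, SE 0.44), and Il7r, also on the T cell marker list, was higher by 3.66 and Csf2rb, the shared chain of the GM-CSF receptor, by 2.48. Il15 and Il15ra, the cytokine and the receptor chain that presents it to neighbouring lymphocytes, were higher by 3.08 (SE 0.54) and 3.52 (SE 0.47) on the log2 scale. Csf1r was lower, and lost the call with DESeq2 (adjusted p = 0.14), without the library block (0.16) and under 3 other alternatives. Il12a, Il23a, Il6 and Il10 had 0 UMIs in members, which at this depth shows only that they were not detected.

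Of 5 tested costimulation genes, Cd40, Icosl and Icam1 were higher, Cd48 lower, and Cd86 did not pass at a log2 difference of 0.22 (SE 0.52, edgeR adjusted p = 0.78). Cd86 stood at 53.0 and 100 CPM in members, between cDC1 (183 and 122) and cDC2 (52.4 and 4.67). Cd83, which stabilises MHC class II and CD86 at the surface, stood at 368 and 900 CPM against 23.3 to 51.2, a log2 difference of 4.08 (SE 0.26). Cd80 was too low to test.

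Genes of the regulatory and checkpoint list were split, with 5 higher, 3 lower and 3 not passing of 11 tested and a median log2 difference of -0.17. Il4i1, an amino acid oxidase that depletes phenylalanine and tryptophan, stood at 549 and 931 CPM against 4.96 to 18.7, a log2 difference of 6.01 (SE 0.27, edgeR adjusted p = 7.4e-10). Cd200, ligand of an inhibitory receptor on myeloid cells, stood at 243 and 305 CPM against 5.24 to 9.91, a log2 difference of 5.06 (SE 0.30). Both were above every comparison sum. Cd274, which encodes PD-L1, had 27 UMIs in members and 2 in the comparison, a ratio of 39.6 (counting interval 9.94 to 343), at 37.4 and 58.0 CPM. Fas, the death receptor, had 50 against 1, a ratio of 147 (25.1 to 5901). Tgfb1 stood at 24.9 and 50.2 CPM against 109 to 361 and was lower by a log2 difference of -2.58 (SE 0.36), and Havcr2, which encodes TIM-3, was lower by -2.41 and lost the call with DESeq2 (adjusted p = 0.082). Pdcd1lg2, with 22 UMIs against 1, and Aldh1a2, with 17 against 3, were too low to test, and Ido1 had 0 in members.

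The MHC class I pathway was higher almost throughout, with 17 higher, 1 lower and 2 not passing of 20 tested and a median log2 difference of 1.35. B2m, the invariant light chain, stood at 9754 and 10124 CPM in members, at 3258 and 3478 in cDC1 and at 3766 and 3439 in cDC2, a log2 difference of 1.51 (SE 0.08, edgeR adjusted p = 3.5e-09). H2-K1 was higher by 1.64 and H2-D1 by 1.26, though reads of such similar heavy chain genes can be split between them. Psme2, a proteasome activator subunit, stood at 2164 and 3022 CPM against 233 to 576, a log2 difference of 2.80 (SE 0.14), and Nlrc5, the activator of class I transcription, was higher by 2.85. The peptide transporter gene Tap1 was higher by 0.62 (edgeR adjusted p = 0.029), with members close to cDC1, and lost the call with DESeq2 (adjusted p = 0.22) and under upper-quartile scaling (0.11). The lower gene was Pdia3, a chaperone of class I loading, which lost the call with DESeq2 (adjusted p = 0.14). With 1 NASH library left out and control sums added, B2m kept its log2 difference (1.51 and 1.43) but lost the edgeR call (adjusted p = 0.24 and 0.26), as did H2-K1 and H2-D1.

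MHC class II genes did not move one way. Of 14 tested, 4 were higher and 6 lower, with a median of -0.06, and 3 were higher and 7 lower under upper-quartile scaling. H2-Aa stood at 12862 and 13540 CPM in members against 11202 to 12250 in the comparison, and did not pass (log2 difference 0.16, edgeR adjusted p = 0.072). Cd74, the invariant chain, did not pass either (0.00, edgeR adjusted p = 0.97). H2-DMb1 and H2-DMa, the chains of the peptide exchange factor, were lower. H2-DMb1 stood at 134 and 69.6 CPM against 863 to 1006 (log2 difference -3.18, SE 0.21), and H2-DMa at 262 and 232 CPM against 1149 to 1287 (-2.31, SE 0.16, edgeR adjusted p = 4.2e-08). Ciita, the activator of class II transcription, stood at 28.1 and 7.73 CPM against 36.4 to 62.9 (-1.35, edgeR adjusted p = 0.035). Ciita lost the call under 4 alternatives, among them DESeq2 (adjusted p = 0.23) and the fit without the library block (0.063). March1, the ligase that sends class II to degradation, had 3 UMIs in members against 66, and H2-Oa, an inhibitor of the exchange factor, was lower by -1.62. Members lay below all comparison sums for each of these 5 genes. Ifi30, a lysosomal thiol reductase, and Lgmn, an endopeptidase, were higher by 1.26 and 1.17. H2-Ab1, which the rule used, stood at 5687 and 5916 CPM in members against 11890 to 12969 and is given with no test.

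**Figure D3:**
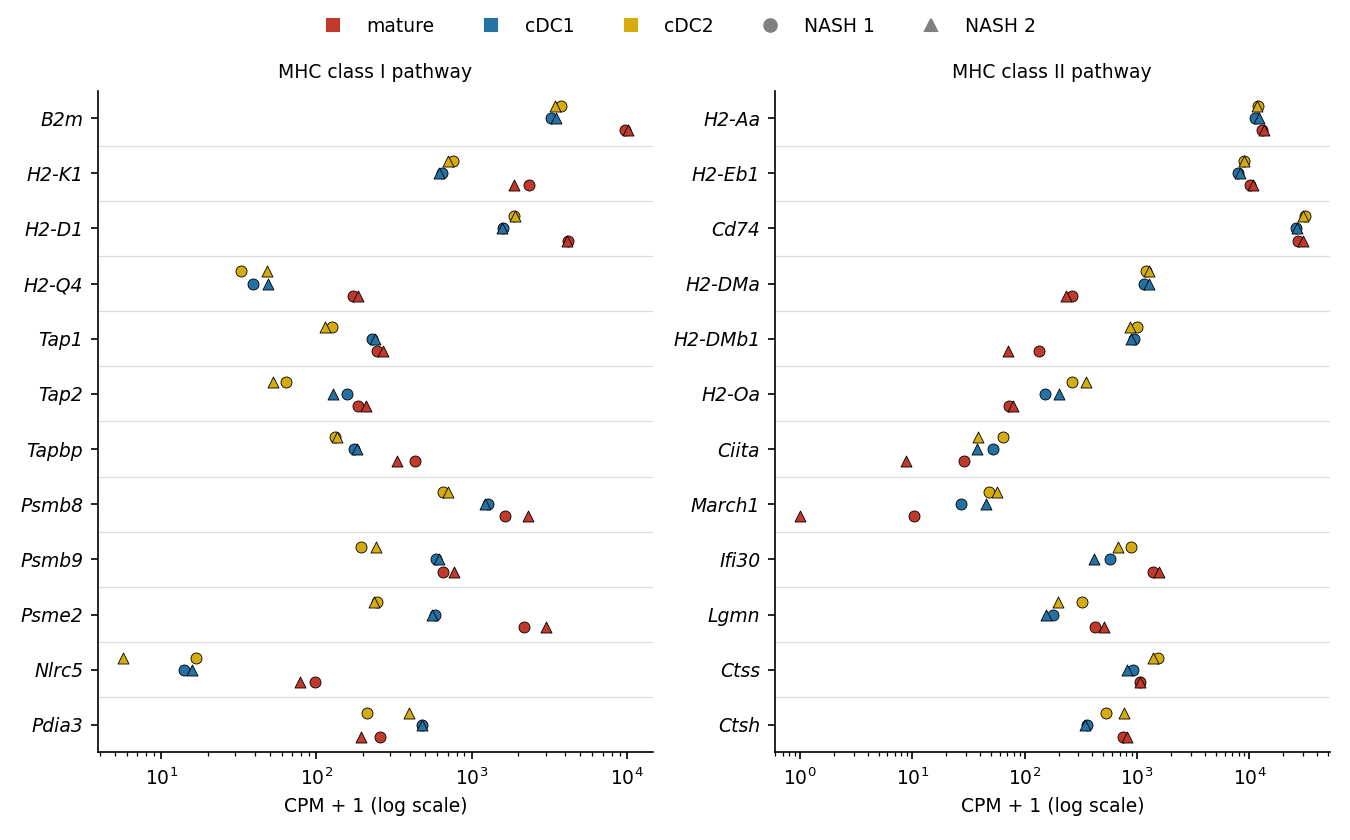
CPM + 1 on a log axis for genes of MHC class I and class II presentation in the 6 sums, with class by colour (mature red, cDC1 blue, cDC2 yellow), circles for NASH 1 and triangles for NASH 2. B2m lay higher in members, H2-DMb1 and H2-DMa lower, and H2-Aa and Cd74 close together in all classes.

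Of 14 tested genes of antigen uptake, 6 were lower, 1 higher and 7 did not pass, with a median log2 difference of -1.03. The lower count was 4 with DESeq2, 9 under upper-quartile scaling and 10 without the 5 members named above. The higher gene was Ly75, the endocytic receptor DEC-205, at 175 and 120 CPM against 10.2 and 14.9 in cDC1 and 0 in cDC2 (log2 difference 6.17, SE 0.56, edgeR adjusted p = 1.5e-06). Clec10a, a C-type lectin, had 0 UMIs in members and 65 in the comparison. Of the lysosome list 2 of 16 were higher and 4 lower, against 19.8% and 14.4% over all genes, with 2 lower by DESeq2. Lamp1, a lysosomal membrane protein, stood at 1079 and 958 CPM against 187 to 293 (log2 difference 2.26, SE 0.16).

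Of 16 tested genes that mark cDC1, 2 were higher, 3 lower and 11 did not pass, which is near the shares over all genes. A mean of both classes can mask a fall of genes that only cDC1 hold. The whole list, gate genes included, summed to 1774 to 1917 CPM in members. It summed to 6847 to 7437 CPM in cDC1 and 817 to 840 in cDC2. Of 16 cDC2 genes 2 were higher and 9 lower, against 14.4% lower over all genes. That list, gate gene included, summed to 1453 to 1780 CPM in members, 1813 to 2778 in cDC1 and 3887 to 7464 in cDC2. Irf8, the transcription factor that cDC1 depend on, stood at 274 and 386 CPM in members, between cDC1 (1341 and 1654) and cDC2 (173 and 79.3), and its log2 difference was -0.40 against the mean (edgeR adjusted p = 0.25), -2.19 against cDC1 and 1.39 against cDC2. Batf3, its partner in cDC1, stood at 225 and 228 CPM, at 186 and 223 in cDC1 and at 83.8 and 70.0 in cDC2 (0.86 against the mean, edgeR adjusted p = 0.0075), and it lost the call against the mean with DESeq2, with Flt3-positive comparison cells, after thinning and with split UMIs (adjusted p from 0.062 to 0.12). Mgl2, a lectin of cDC2, had 0 UMIs in members and 98 in cDC2, and Cd7 had 0 in members and 126 in the comparison. Mgl2 lost the call after thinning and with split UMIs, and Cd7 without the library block (adjusted p = 0.11). Counting the lineage genes detected in each member, 28 members held more cDC1 genes, 20 more cDC2 genes, 7 equal numbers and 30 neither. Thinned to 2000 UMIs, 66 of 85 held neither, so most members could not be placed. At the same depth 3 of 111 cDC1 and 3 of 43 cDC2 of the NASH libraries held neither. There 99 cDC1 held more cDC1 genes and 35 cDC2 held more cDC2 genes. Those classes were themselves chosen by lineage genes, and the cause of the gap to members was not tested. Of the genes that all dendritic cells share, Flt3 (log2 difference 0.38, edgeR adjusted p = 0.2) and Zbtb46 (0.34, edgeR adjusted p = 0.57) did not pass, and Itgax, which encodes CD11c, was lower at 56.1 and 73.4 CPM against 119 to 199 and lost the call with DESeq2 (adjusted p = 0.095).

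**Figure D4:**
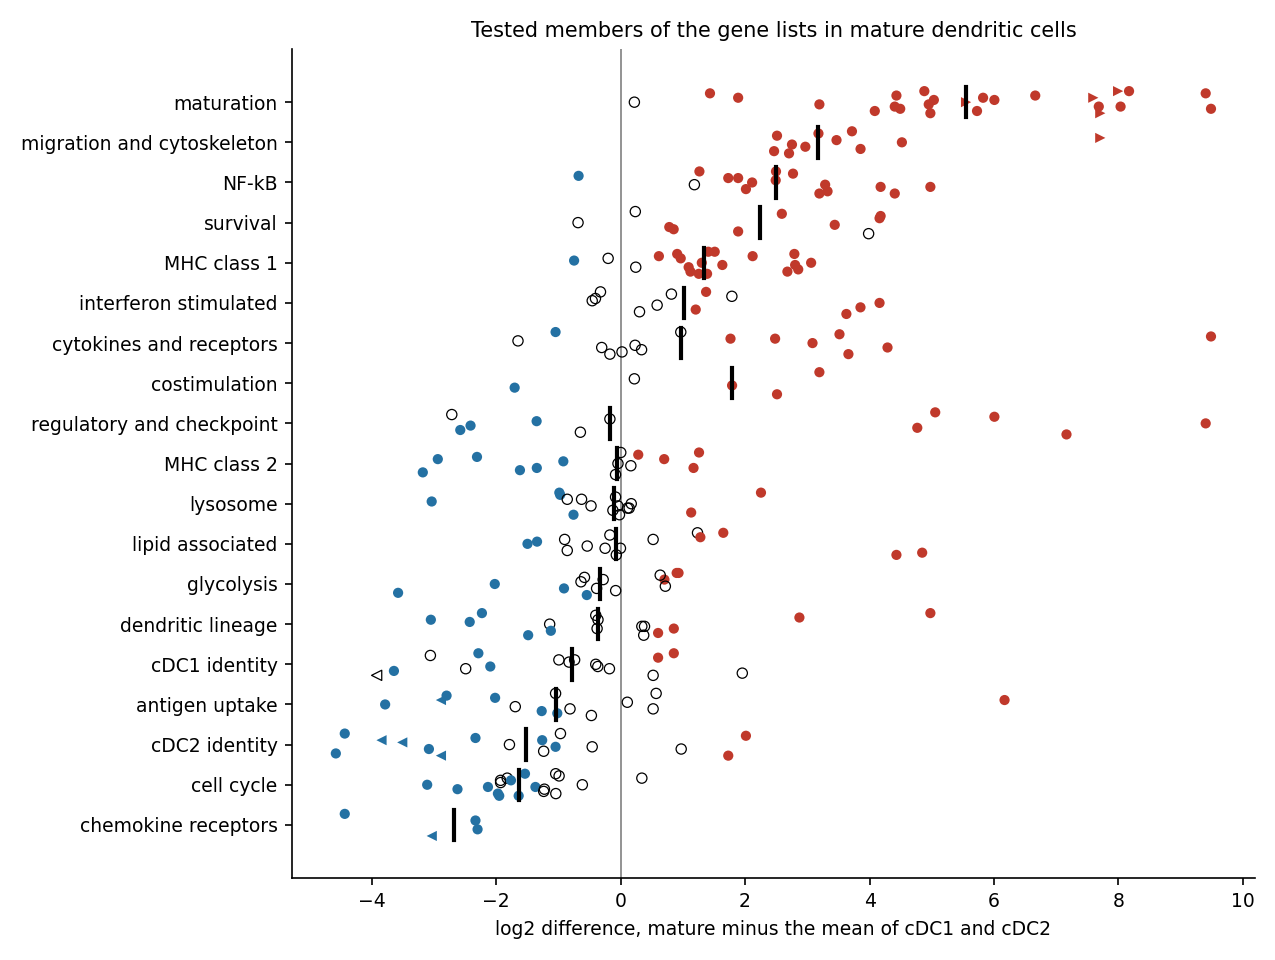
Log2 difference of members against the mean of cDC1 and cDC2 for each tested gene of the lists, with red for higher, blue for lower, open for genes that did not pass, a black bar for the list median and triangles for genes with 0 UMIs on one side drawn at their bound. Maturation (median 5.55 with genes at their bound) and migration genes (3.18) lay to the higher side, and chemokine receptors and cell cycle genes to the lower side.

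Further down the fixed lists, survival genes were higher in 7 of 10 tested and lower in 0, with a median log2 difference of 2.24, and they included Cflar, Birc2 and Birc3. The Bcl2a1 genes on that list are near-identical copies, so their counts are uncertain. Interferon-stimulated genes were higher in 5 of 12 and lower in 0, among them Irf1. Cell cycle genes were lower in 9 of 19 and higher in 0, with a median of -1.64, and the lower count was 4 with DESeq2, 14 under upper-quartile scaling and 16 without the 5 members. Ube2c, which drives exit from mitosis, stood at 15.6 and 7.73 CPM against 36.7 to 173 (log2 difference -3.11, SE 0.51). Glycolysis was split, 3 higher and 4 lower of 14 against 19.8% and 14.4% over all genes, or 2 and 2 with DESeq2. Gapdh was higher by 0.70 (SE 0.12), and Ldha, which makes lactate, stood at 200 and 85.0 CPM against 508 to 665 (-2.02, SE 0.25). Of 15 lipid-associated genes 4 were higher and 2 lower, near the shares over all genes. The higher ones were Fabp5, a fatty acid carrier (log2 difference 4.85, SE 0.58), Cd63, a tetraspanin of endosomes (4.43, SE 0.17), the cholesterol carrier Npc2 (1.65) and Fabp4, which lost the call with DESeq2 (adjusted p = 0.27). Of 5 Toll-like receptor pathway genes tested, Ly96 was higher and Myd88 lower, and Myd88 lost the call with DESeq2 (adjusted p = 0.16). These counts too lay near the shares over all genes.

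The largest negative differences among the named genes had low levels in both member sums. Ckb, creatine kinase, stood at 28.1 and 19.3 CPM against 420 to 811 (log2 difference -4.61, SE 0.26, edgeR adjusted p = 9.9e-09). Alox5ap, which helps make leukotrienes, stood at 53.0 and 23.2 CPM against 672 to 859 (-4.29, SE 0.28). Itgb7, an integrin chain of gut homing, stood at 21.8 and 3.86 CPM against 182 to 285 (-3.92), and Mef2c, a transcription factor, at 9.35 and 3.86 CPM against 44.6 to 187 (-3.74). Tm6sf1, Unc119, Naaa, Ppfia4, Anxa6 and Plbd1 were also among them, with log2 differences from -4.48 to -3.31.

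Markers of other cell types were measured in the same sums. Macrophage markers summed to 819 and 998 CPM in members, 935 to 955 in cDC1 and 728 to 1126 in cDC2, and 0 of the 5 tested passed in either direction, with Cd163 and Marco at 0. T cell markers summed to at most 120 CPM, and Cd3d, Cd3g, Cd4 and Lck were at 0. NK cell, B cell, plasmacytoid, hepatocyte, and endothelial and stellate cell lists summed to 212 to 259, 65.5 to 65.7, 318 to 514, 108 to 181 and 287 to 440 CPM. In cDC1 and cDC2 the NK cell list summed to 94.3 to 210 CPM, the endothelial and stellate cell list to 114 to 194 and the T cell list to 18.2 to 60.7, so the members stood above them in these 3 lists. Of single genes, Il7r, Klrk1 and the endonuclease gene Dnase1l3 were higher in members, and Klrk1 lost the call with DESeq2 (adjusted p = 0.07).

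Monocyte markers summed to 2548 CPM in NASH 1 and 502 in NASH 2, and neutrophil and basophil markers to 742 and 15.5. That gap traced to 5 members of NASH 1. A cell of 5263 UMIs held 179 of S100a8 and S100a9, and a cell of 5393 UMIs held 23. Another 2 held the monocyte gene Plac8 at 116 and 49 UMIs, the first being the deepest member with 30642 UMIs and 58 of Ly6c2. The last, of 14505 UMIs, was the cell nearest the C1q limit. The other 41 members of NASH 1 held 15 S100a8 and S100a9 UMIs in all, and the counts without the 5 are given beside the overall count. In those counts the maturation, migration, NF-kB and MHC class I lists stood as before, at 24, 11, 14 and 17 genes higher.

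Members varied widely in single genes. In UMIs per 10000 of a cell, Ccl5 ran from 0 to 545 with a median of 40.7, Ccl22 from 0 to 85.7 with a median of 4.07, and Ccr7 from 0.741 to 55.3 with a median of 9.27. Il12b was found in 27 of 46 members of NASH 1 and 27 of 39 of NASH 2, and the 10% of members with most of it held 54.9% of its UMIs. Members with Il12b had a median of 9936 UMIs and those without 6284, so depth moved with its detection, and its part in it was not tested. Both Il12b and Ccl22 were found in 48 members.

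**Figure D5:**
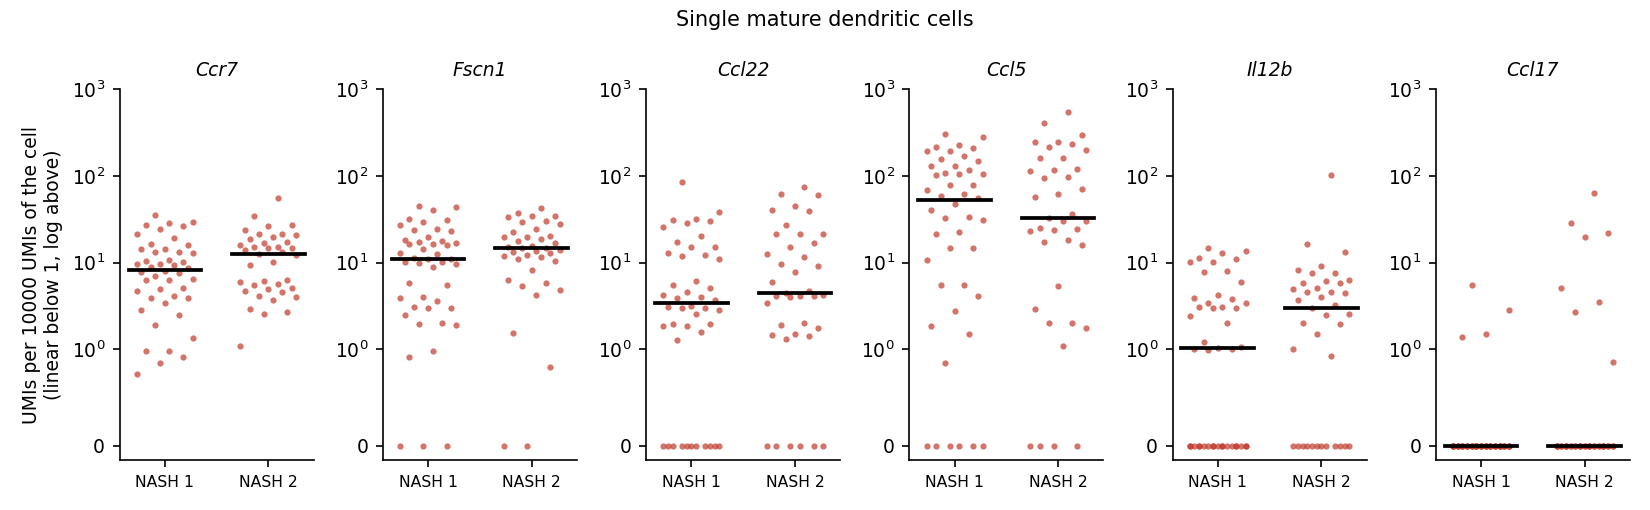
UMIs per 10000 for single members of NASH 1 and NASH 2, 1 point per cell, with the median as a bar, on an axis that is linear below 1 and logarithmic above. Ccl5 ranged from 0 to 545, and Il12b was found in 54 of 85 members.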

How the data were processed

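The authors deposited raw UMI counts of 27998 genes in 4 droplet matrices, and Cell Ranger, Seurat and the mm10 build are named without versions, per the submitters' processing notes. The calling of barcodes, earlier filters and strand use were not given in the sources used here. Members and gene lists were chosen with earlier results of these data known.

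Cells were kept from 200 detected genes upward and up to 10% mitochondrial UMIs. The highest Scrublet scores of each library (0.8% per 1000 cells, giving 14, 17, 20 and 28 cells) were left out only as an alternative; they held no member, cDC1 or cDC2. cDC1 met the shared criteria, were not members and held Xcr1 or Clec9a. A single such UMI was enough and Cd209a was allowed, so the cDC1 class was not pure. Of its 111 NASH cells, 103 held more cDC1 than cDC2 genes, 4 more cDC2 genes and 4 equal numbers. cDC2 held Cd209a and none of Xcr1, Clec9a or Ly6c2. UMIs were summed per library and class. The fit used edgeR 4.0.16 and limma 3.58.1 in R 4.3.3, with the library as block, TMM factors, filterByExpr and robust quasi-likelihood F tests. P-values were adjusted by Benjamini-Hochberg over all tested genes, with 0.05 as threshold. The block is a true pairing, since the 3 sums of a library come from the same sort. Genes used by the rule or gates were left out of counts of calls. Genes with 0 UMIs in members or in the comparison passed filterByExpr through the other side alone, so only a single direction was open to them. A fold against 0 UMIs was computed with a floor of 3 counts for the whole group, and a 95% counting interval is given where the comparison held 1 to 3. Shares have exact Clopper-Pearson intervals. Intervals and floors cover counting error only. Alternatives were DESeq2 1.42.0, upper-quartile scaling, other filters, thinned counts, left-out libraries and other gates, and the removal of 5 members was added after seeing the data. The fit was tested on simulated data.

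The genes named are the 12 largest differences each way at 100 CPM or more past all comparison sums, the 4 smallest p of each list and a set of dendritic cell genes; the text also names further list members. Gene positions are from GENCODE vM21 (27645 of 27998 identifiers matched) and promoters from RefSeq (GRCm38.p6). Other software was numpy 2.4.6, pandas 2.3.3, scipy 1.17.1, anndata 0.12.19, scanpy 1.11.5 and matplotlib 3.10.9 under Python 3.11.15.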

Additional observations from a re-analysis of the deposited data

How the results depend on the processing

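The number of genes called against the mean of cDC1 and cDC2 was 1501, and it was 762 with DESeq2, 489 with every cell thinned to 2000 UMIs and 872 where a random part of each cell's UMIs set the classes and the rest were measured. Against cDC1 the same settings gave 612, 502 and 861, and against cDC2 585, 412 and 757, beside 1441 and 1282. Thinning and splitting leave fewer UMIs to test, and for DESeq2 the cause was not tested. With control sums added, leaving out 1 NASH library gave 209 to 274, 171 to 241 and 180 to 236 calls. Leaving out a library with no such sums leaves no residual degrees of freedom and gives values with no test. Without the replicate block, 1468 genes were called against the mean, 1386 against cDC1 and 1228 against cDC2. Counts stayed within 1.5 times under the other filters, gates and scalings run. Of named genes, 13 lost the call with DESeq2 and 6 without the block, and no gene called in the main fit was called with the other sign. Cd74, near 0 in the main fit, was lower by -0.18 under upper-quartile scaling and by -0.28 after thinning. Ccl17 was lower by -3.67 with control sums added and without NASH library 2. The share of kept cells differed by 2.03 to 2.85 points, and that of conventional dendritic cells by 30.3 to 35.5 points, when each library was left out. Control and NASH libraries share only replicate numbers, and pairing them by replicate block gave the same 2.44 and 32.9 points, with an exact sign-flip p of 0.5, the smallest that 2 pairs can give. At 1000 UMIs the share differed by 0.847 points. The numbers of cDC2 cells, 22 and 21, and the depth of the control libraries limit what could be detected.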

Other observations

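A few single members carried much of certain genes, which the sums alone do not show. In NASH 2 a member of 10619 UMIs held 43 of the 43 UMIs of Il27, 109 of the 250 of Il12b (43.6%), 28 of the 32 of Cxcl9, a chemokine for CXCR3-bearing T cells, and 56 of the 104 of the ubiquitin-like Isg15. The same cell held 191 of the 558 UMIs of the interferon-stimulated list in that library (34.2%), and 79 of Ccl22. Another member of NASH 2, of 11300 UMIs, held 616 of the 2904 Ccl5 UMIs and 36 of the 67 of Irf7. Cell cycle genes were likewise uneven, with 182 of 410 UMIs in a single member of NASH 2 and 124 of 501 in a single member of NASH 1.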
